A study of Mus musculus with 8 samples.

Results

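The 39 genes described here are interferon-stimulated genes, transcripts that type I interferon is known to induce in mouse cells. They were chosen by name, and 39 of 39 were found by symbol among the 27179 gene identifiers of the deposited count table. All 39 also passed the filter on low counts, which kept 13794 genes for testing. RNA was sequenced from natural killer T (NKT) cells of the mouse thymus, in Ezh2-KO mice and in WT mice on the same C57BL/6 background. Each genotype gave 4 libraries: 1 of CD44- NK1.1- cells, 2 of CD44+ NK1.1- cells and 1 of CD44+ NK1.1+ cells. The subsets differ in CD44, an adhesion receptor, and NK1.1, a receptor of NK cells, both on the cell surface, and no treatment or stimulus is named for any group. The sources used here do not give the allele or Cre line that removed Ezh2, the cells in which it was removed, or the age and sex of the mice, and they do not say whether libraries of different subsets share animals.

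Type I interferons bind a receptor made of the chains IFNAR1 and IFNAR2 and activate the kinases JAK1 and TYK2, which phosphorylate STAT proteins, STAT2 among them. STAT2 acts with IRF9 in a complex that binds an element called the interferon-stimulated response element, or ISRE, in the promoters of many interferon-stimulated genes. In the thymus, maturing T cells are known to carry a low basal level of this response, without infection, driven by interferon beta from epithelial cells. Ezh2 is the catalytic subunit of Polycomb repressive complex PRC2, which methylates histone H3 at silenced genes. NKT cells are known to mature from CD44- NK1.1- cells through CD44+ NK1.1- cells to CD44+ NK1.1+ cells, which resemble NK cells and make interferon gamma.

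The promoters of 7 of these genes are shown because they carry letters that match the core of an ISRE, the element the pathway acts through. They span different outcomes below: Ifit3, Oas3 and Rsad2 were lower in Ezh2-KO cells, Isg15, Ifit1 and Bst2 were not called different between the genotypes, and Oas1a had higher values in Ezh2-KO cells without passing the test. Each line gives the 160 bases before a transcript start annotated by RefSeq on GRCm38.p6, written 5′ to 3′ on the strand of the gene. Capitals mark every match to GAAANNGAAA on either strand, so that a match on the opposite strand reads TTTCNNTTTC.
Ifit3: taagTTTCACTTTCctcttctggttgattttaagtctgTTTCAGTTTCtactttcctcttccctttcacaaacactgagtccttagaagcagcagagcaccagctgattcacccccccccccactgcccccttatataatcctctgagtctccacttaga
Oas3: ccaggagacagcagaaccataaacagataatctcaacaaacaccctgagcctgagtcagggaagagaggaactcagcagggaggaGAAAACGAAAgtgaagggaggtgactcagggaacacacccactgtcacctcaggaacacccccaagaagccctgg
Rsad2: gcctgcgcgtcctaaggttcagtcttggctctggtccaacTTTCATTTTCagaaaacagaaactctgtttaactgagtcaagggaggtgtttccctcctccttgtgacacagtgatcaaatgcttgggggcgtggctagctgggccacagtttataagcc
Isg15: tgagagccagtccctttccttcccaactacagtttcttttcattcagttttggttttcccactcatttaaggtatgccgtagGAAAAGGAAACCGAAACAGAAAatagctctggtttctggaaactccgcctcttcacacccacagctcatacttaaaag
Ifit1: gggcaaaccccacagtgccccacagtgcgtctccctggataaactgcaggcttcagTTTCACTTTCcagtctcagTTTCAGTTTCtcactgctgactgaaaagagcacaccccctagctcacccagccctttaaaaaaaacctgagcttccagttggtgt
Bst2: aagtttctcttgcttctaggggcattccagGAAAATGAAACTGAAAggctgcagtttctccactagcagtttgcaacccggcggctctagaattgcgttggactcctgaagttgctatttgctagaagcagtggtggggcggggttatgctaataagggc
Oas1a: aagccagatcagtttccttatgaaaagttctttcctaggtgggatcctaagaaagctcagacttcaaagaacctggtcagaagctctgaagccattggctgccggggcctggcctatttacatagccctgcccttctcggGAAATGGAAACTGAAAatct
These stretches lie at chr19:34583369-34583528 on the plus strand, chr5:120777660-120777819 on the minus strand, chr12:26456453-26456612 on the minus strand, chr4:156200819-156200978 on the minus strand, chr19:34640729-34640888 on the plus strand, chr8:71537473-71537632 on the minus strand and chr5:120907526-120907685 on the minus strand. In Isg15, 3 matches overlap in a run of capitals, and Bst2 and Oas1a each hold 2 that overlap. Ifit3 and Ifit1 each hold 2 separate matches, while Oas3 and Rsad2 hold 1 each.

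Over windows that run from 250 bases before to 50 bases after a RefSeq transcript start, which were available for 30 of the 39 genes, 12 genes (40.0%) held GAAANNGAAA on either strand. The same letters occurred in 3.99% of the 27025 genes that have such windows. A second motif, TTCNNNGAA, which contains the core of the gamma-activated site, an element of the interferon gamma response, occurred in 7 of the 30 genes (23.3%) and in 9.55% of all genes with windows. Of those 7 matches, 1 overlapped a match to GAAANNGAAA. Among the 10 genes that were lower in Ezh2-KO over the 3 subsets, 9 had a window and 4 held the ISRE-like letters, and among the other 29 genes, 21 had a window and 8 held them. A match is a description of the sequence and not evidence of binding.

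Library depth ranged from 20308745 to 22995090 counts, and a count of 0 allows up to 3 counts, which is 0.129 to 0.151 CPM. CPM are counts divided by the library total after TMM scaling, which evens out differences in composition. The gene level count of Ezh2 was lower in Ezh2-KO libraries, with 78.4 CPM in Ezh2-KO against 109 CPM in WT CD44- NK1.1- cells, 83.3 and 77.9 CPM in Ezh2-KO against 113 and 136 CPM in WT CD44+ NK1.1- cells, and 40.4 CPM in Ezh2-KO against 57.1 CPM in WT CD44+ NK1.1+ cells (log2 fold change -0.56 ± 0.07 SE over the subsets, edgeR adjusted p = 0.00402). These counts cover the whole gene, so they do not show which exons remained. T cell and NKT genes were high in every library, with Cd3e at 380 to 621 CPM and Zbtb16, which encodes the NKT transcription factor PLZF, at 114 to 449 CPM. Lists of genes for other cells did not all sit near 0. The 9 plasmacytoid dendritic genes, from cells that make much interferon alpha, summed to 335 to 483 CPM, of which Siglech had 0.0450 to 0.452 CPM, Ccr9 12.3 to 197 CPM and Bst2, one of the 39 genes, 97.2 to 132 CPM. The 10 myeloid and conventional dendritic genes summed to 7.65 to 168 CPM, with Fcer1g at 0.367 to 153 CPM and Cd14 at 0.101 CPM or less. The 7 B cell genes summed to 120 to 347 CPM, of which Ighm made 115 to 339 CPM and Ms4a1 0.402 CPM or less. The 6 thymic epithelial genes summed to 2.15 to 5.83 CPM.

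A few libraries stood apart. WT CD44+ NK1.1- replicate 1 had 3319 CPM in 12 immediate early genes, such as Fos and Junb, against 655 CPM in WT CD44+ NK1.1- replicate 2, and it had 36.8 CPM of Ifng against 3.27 CPM in that replicate. The 4 erythroid genes tested summed to 21.7 CPM, 19.6 and 0.540 CPM, and 59.5 CPM in the Ezh2-KO libraries of CD44- NK1.1-, CD44+ NK1.1- and CD44+ NK1.1+ cells, against 0.989 to 1.68 CPM in the WT libraries. The part of the erythroid genes in differences between the genotypes was not tested. The interferon-stimulated genes of the 2 Ezh2-KO CD44+ NK1.1- libraries had a median log2 ratio of 0.01 between them. Between the WT CD44+ NK1.1- replicates the median was -0.04, but single genes differed more: Irf7 had 158 and 101 CPM, Mx1 8.83 and 3.74 CPM, Mx2 5.99 and 2.67 CPM and Ifi44 4.73 and 1.98 CPM. Results that involve CD44+ NK1.1- cells are given with and without each of those libraries.

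Per gene length, as RPKM (CPM divided by gene length in kilobases), the 39 genes had a median of 27.3 RPKM over the 8 libraries, and 38 of the 39 averaged 1 RPKM or more. Bst2, which encodes the membrane protein tetherin that holds budding virions on the cell, was the highest at 158 ± 13.8 RPKM (SD over the 8 libraries). Sp100, a nuclear body protein, followed at 138 ± 42.8 RPKM and Samhd1, a hydrolase that depletes deoxynucleotides, at 94.7 ± 22.5 RPKM. Bst2 and Sp100 overlap in their spread, and so do Sp100 and Samhd1. At the low end stood Mx1 at 2.23 ± 0.703 RPKM and Mx2 at 1.55 ± 0.565 RPKM, 2 dynamin-like GTPases, then Ube2l6, the conjugating enzyme for ISG15, at 1.52 ± 0.431 RPKM and Ifi44 at 0.561 ± 0.463 RPKM. C57BL/6 mice are known to carry a deletion in Mx1 that removes its function.

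**Figure D1:**
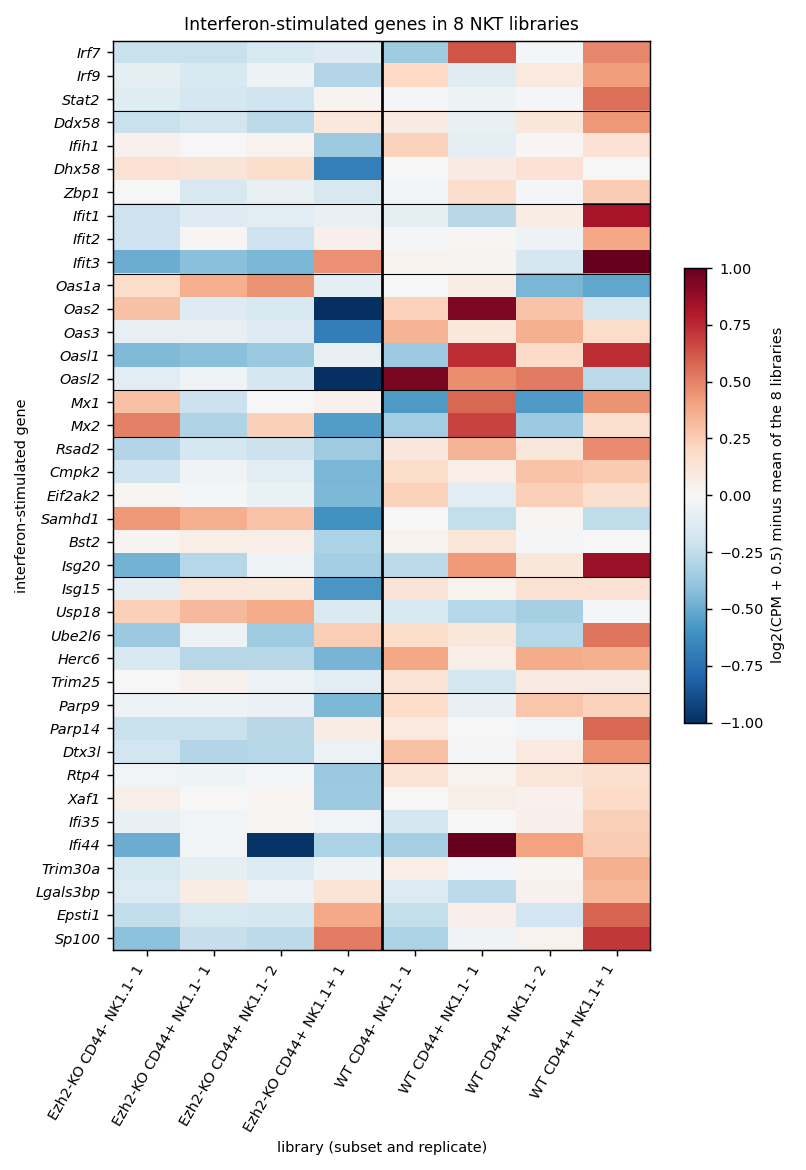
Each row is 1 of the 39 interferon-stimulated genes, grouped by role, and each column is 1 library, with the 4 Ezh2-KO libraries left of the 4 WT libraries. Colour gives log2(CPM + 0.5) minus the gene's mean over the 8 libraries, with the deepest colour at 1 and beyond. The WT CD44+ NK1.1+ library is the highest of the 8 for 20 genes and the Ezh2-KO CD44+ NK1.1+ library is the lowest for 17.

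The summed level of the 39 genes was 3506 CPM in Ezh2-KO against 3817 CPM in WT CD44- NK1.1- cells, 3563 and 3496 CPM in Ezh2-KO against 3719 and 3865 CPM in WT CD44+ NK1.1- cells, and 3429 CPM in Ezh2-KO against 4683 CPM in WT CD44+ NK1.1+ cells. In each subset the sums of the Ezh2-KO libraries lay below those of the WT libraries. Most genes stayed within a narrow range, and 13 of the 39 differed more than 2-fold between their highest and lowest library.

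In CD44+ NK1.1- cells, the subset with replicates, 1 gene rose and 1 fell in Ezh2-KO. Usp18, which removes ISG15 from proteins and also limits signalling by the interferon receptor, had 29.9 and 30.8 CPM in Ezh2-KO and 19.4 and 18.7 CPM in WT cells. It rose by a log2 fold change of 0.67 ± 0.11 (SE, n = 2 each, edgeR adjusted p = 0.0291). Oasl2, an oligoadenylate synthetase, had 44.8 and 40.9 CPM in Ezh2-KO and 63.7 and 66.3 CPM in WT cells. Its log2 fold change was -0.60 ± 0.10 (SE, edgeR adjusted p = 0.0311). For both genes the replicates of a genotype lay close together and the genotypes did not overlap. Over all genes tested, 4.94% were called in this comparison, 3.78% higher and 1.16% lower, so that 2 of 39 is a share near the background. In bulk RNA, fewer cells that express a gene and less of its RNA per cell cannot be told apart.

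More of the genes leaned lower than passed the test. The median log2 fold change of the 39 genes was -0.16, against -0.01 for all genes tested, and 30 of the 39 values were negative. Both Ezh2-KO libraries lay below both WT libraries for 20 genes, where 25.8% of all genes did, and above them for 3, where 26.5% of all genes did. The 3 were Usp18, Samhd1 and Oas1a. Samhd1 had 475 and 451 CPM in Ezh2-KO against 313 and 374 CPM in WT cells (log2 fold change 0.43 ± 0.11 SE, edgeR adjusted p = 0.101). Oas1a had 58.0 and 61.4 CPM in Ezh2-KO against 47.4 and 32.5 CPM in WT cells (0.58 ± 0.19 SE, adjusted p = 0.155), and the WT replicates were far apart. At an unadjusted p under 0.05, 16 genes stood out, 13 of them lower, where all genes gave 20.7% in either direction and 9.51% lower.

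Several central genes of the response had nearly equal levels in the 2 genotypes of this subset. Isg15, the ubiquitin-like modifier, had 54.0 and 53.9 CPM in Ezh2-KO and 51.5 and 55.9 CPM in WT cells (log2 fold change 0.01 ± 0.10 SE, edgeR adjusted p = 0.979). Ifit1, which binds viral RNA that lacks cap methylation, had 61.3 and 62.2 CPM in Ezh2-KO and 55.2 and 70.7 CPM in WT cells. Bst2 had 127 and 127 CPM in Ezh2-KO and 132 and 120 CPM in WT cells. For all 3 genes the Ezh2-KO values fell inside or close to the span of the WT values. Both calls of this comparison were lost when either Ezh2-KO library was left out, while more genes were called without either WT library, among all genes too. With 1 library left out the log2 fold change ran from 0.64 to 0.70 for Usp18 and from -0.67 to -0.54 for Oasl2. With 1 library left in an arm, the spread comes from the other pair alone and the lone library is assumed to vary like it.

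Across all 8 libraries, in a model with subset and genotype as added effects, 10 of the 39 genes were lower in Ezh2-KO and 0 were higher. The model assumes a genotype effect that is alike in the 3 subsets. It also treats the 8 libraries as independent, which could not be checked because shared animals are not stated. With library size in place of TMM, 8 were lower and 1 higher, and by the DESeq2 Wald test 14 were lower and 1 higher. Among all genes tested, 11.3% were called, 6.43% higher and 4.89% lower. The median log2 fold change of the 39 was -0.23, against -0.01 for all genes. Without either CD44+ NK1.1+ library the median of the 39 was -0.15 and the calls were no longer all lower. Part of the shift thus rested on that pair of single libraries. The 10 were Oasl2, Dtx3l, Herc6, Ifit3, Rsad2, Parp14, Oas3, Ddx58, Cmpk2 and Oasl1. At an unadjusted p under 0.05 there were 23 genes, 21 lower, where all genes gave 26.9% in either direction and 13.2% lower. Every Ezh2-KO library lay below the WT libraries of its subset for 16 of the 39 genes, among them all 10 called genes, where 14.5% of all genes did so. The 10 were called from these same values, so their place among the 16 is no separate evidence.

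The sums of some marker lists also differed between the genotypes, not all in the same direction. The 7 immature thymocyte genes summed to 113 CPM in Ezh2-KO against 239 CPM in WT CD44- NK1.1- cells, 155 and 136 CPM in Ezh2-KO against 347 and 310 CPM in WT CD44+ NK1.1- cells, and 103 CPM in Ezh2-KO against 224 CPM in WT CD44+ NK1.1+ cells. Cd4, which many NKT cells also carry, made 45.1 to 131 CPM of that sum in Ezh2-KO and 175 to 284 CPM in WT libraries. The 10 NKT1 genes, of the interferon gamma producing type, summed to 294 CPM in Ezh2-KO against 519 CPM in WT CD44- NK1.1- cells and to 698 and 650 CPM in Ezh2-KO against 1972 and 1137 CPM in WT CD44+ NK1.1- cells. The 7 NKT2 genes summed to 1760 CPM in Ezh2-KO against 1635 CPM in WT CD44- NK1.1- cells and to 1444 and 1501 CPM in Ezh2-KO against 1185 and 1195 CPM in WT CD44+ NK1.1- cells. Few single genes of these lists were called over the 3 subsets. Those called were 1 of the 7 immature thymocyte genes and 2 of the 10 NKT1 genes, all lower, and 3 of the 7 NKT2 genes, 2 higher and 1 lower. Among all genes tested 6.43% were called higher and 4.89% lower. The part of these lists in the lower interferon-stimulated genes was not tested.

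Genes of the oligoadenylate synthetase family, some of whose members sense double-stranded RNA and activate RNase L, made up 3 of the 10. Oasl2 had 42.9 CPM in Ezh2-KO against 88.9 CPM in WT CD44- NK1.1- cells and 17.9 CPM in Ezh2-KO against 38.3 CPM in WT CD44+ NK1.1+ cells, beside the CD44+ NK1.1- values given above. It was lower in each subset, with a log2 fold change of -0.83 ± 0.10 (SE, edgeR adjusted p = 0.00333). Oas3 had 185 CPM in Ezh2-KO against 247 CPM in WT CD44- NK1.1- cells, 185 and 179 CPM in Ezh2-KO against 209 and 249 CPM in WT CD44+ NK1.1- cells, and 120 CPM in Ezh2-KO against 221 CPM in WT CD44+ NK1.1+ cells (-0.49 ± 0.10 SE, adjusted p = 0.0229). Its Ezh2-KO values did not reach the WT values in any subset. Oasl1, which in the mouse is known to inhibit translation of Irf7 mRNA, had 12.3 and 12.7 CPM in Ezh2-KO against 28.0 and 19.0 CPM in WT CD44+ NK1.1- cells, and 15.7 CPM in Ezh2-KO against 28.0 CPM in WT CD44+ NK1.1+ cells. In CD44- NK1.1- cells it had 12.1 CPM in Ezh2-KO and 12.8 CPM in WT, which is close to equal (-0.69 ± 0.18 SE over the subsets, adjusted p = 0.0457).

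The other 2 synthetases did not pass. Oas2 had 13.7 CPM in Ezh2-KO against 13.1 CPM in WT CD44- NK1.1- cells, 10.1 and 9.94 CPM in Ezh2-KO against 21.7 and 13.6 CPM in WT CD44+ NK1.1- cells, and 4.27 CPM in Ezh2-KO against 9.69 CPM in WT CD44+ NK1.1+ cells (log2 fold change -0.67 ± 0.22 SE, edgeR adjusted p = 0.101). Its WT replicates differed more than those of Oasl2. Oas1a had the opposite sign, with a log2 fold change of 0.44 ± 0.13 (SE, adjusted p = 0.0611) and higher values in Ezh2-KO in each subset, for example 50.9 CPM in Ezh2-KO against 44.8 CPM in WT CD44- NK1.1- cells. Oas1a has near-identical neighbours in the mouse, and the counting could have split reads among them.

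The IFIT proteins bind foreign RNA ends and block its translation. Ifit3, the adaptor of that complex, had 73.0 CPM in Ezh2-KO against 106 CPM in WT CD44- NK1.1- cells, 77.3 and 74.9 CPM in Ezh2-KO against 105 and 91.2 CPM in WT CD44+ NK1.1- cells, and 142 CPM in Ezh2-KO against 211 CPM in WT CD44+ NK1.1+ cells. Its log2 fold change was -0.46 ± 0.07 (SE, edgeR adjusted p = 0.00689), with Ezh2-KO values below WT values in each subset. Ifit1 (-0.27 ± 0.16 SE, adjusted p = 0.33) and Ifit2 (-0.17 ± 0.08 SE, adjusted p = 0.2) were not called. Ifit3b, a near copy of Ifit3, was also lower (-0.43 ± 0.09 SE, adjusted p = 0.0252), as was Ifit1bl1, which overlaps Ifit1 over 9121 bases (-0.59 ± 0.08 SE, adjusted p = 0.00365). Reads of such copies may be shared among them, so the split between members of this cluster on chromosome 19 is uncertain.

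Rsad2 and Cmpk2 are neighbours on chromosome 12 and work in 1 pathway: CMPK2 supplies CTP to RSAD2, also called viperin, which makes a chain terminator of viral RNA. Rsad2 had 23.3 CPM in Ezh2-KO against 31.1 CPM in WT CD44- NK1.1- cells, 25.3 and 24.7 CPM in Ezh2-KO against 36.4 and 31.1 CPM in WT CD44+ NK1.1- cells, and 22.3 CPM in Ezh2-KO against 40.0 CPM in WT CD44+ NK1.1+ cells (log2 fold change -0.53 ± 0.10 SE, edgeR adjusted p = 0.0132). Cmpk2 followed the same order in each subset, with its widest gap in CD44+ NK1.1+ cells, at 27.8 CPM in Ezh2-KO and 46.0 CPM in WT (-0.40 ± 0.10 SE over the subsets, adjusted p = 0.0369). The other antiviral effectors were not called. Eif2ak2, the kinase PKR, had a log2 fold change of -0.26 ± 0.11 (SE, adjusted p = 0.165), Isg20, an exonuclease, one of -0.58 ± 0.17 (adjusted p = 0.0671), Bst2 one of -0.08 ± 0.07 (adjusted p = 0.557) and Samhd1 a positive one.

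On chromosome 16 the genes Parp14, Dtx3l and Parp9 lie together. DTX3L is a ubiquitin ligase that pairs with PARP9, and PARP14 is an ADP-ribosyltransferase. Dtx3l had 137 CPM in Ezh2-KO against 191 CPM in WT CD44- NK1.1- cells, 127 and 128 CPM in Ezh2-KO against 154 and 167 CPM in WT CD44+ NK1.1- cells, and 150 CPM in Ezh2-KO against 214 CPM in WT CD44+ NK1.1+ cells (log2 fold change -0.42 ± 0.06 SE, edgeR adjusted p = 0.00602). Its fall was of like size in each subset. Parp14 had 167 CPM in Ezh2-KO against 209 CPM in WT CD44- NK1.1- cells, 166 and 161 CPM in Ezh2-KO against 194 and 191 CPM in WT CD44+ NK1.1- cells, and 204 CPM in Ezh2-KO against 291 CPM in WT CD44+ NK1.1+ cells (-0.33 ± 0.06 SE, adjusted p = 0.0153). Parp9 was not called (-0.31 ± 0.11 SE, adjusted p = 0.113). Parp9 and Dtx3l overlap over 558 bases, and whether the counting used strand is not stated in the labels or the file.

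In the ISG15 system only Herc6, the ligase that attaches ISG15 in the mouse, was called. It had 58.5 CPM in Ezh2-KO against 85.1 CPM in WT CD44- NK1.1- cells, 53.2 and 53.5 CPM in Ezh2-KO against 67.8 and 84.0 CPM in WT CD44+ NK1.1- cells, and 46.9 CPM in Ezh2-KO against 83.0 CPM in WT CD44+ NK1.1+ cells (log2 fold change -0.60 ± 0.09 SE, edgeR adjusted p = 0.00659). All 4 Ezh2-KO values lay below all 4 WT values. Isg15 itself (-0.23 ± 0.12 SE, adjusted p = 0.273), Trim25 and Ube2l6 were not called. Usp18, which was higher in CD44+ NK1.1- cells, had 28.0 CPM in Ezh2-KO against 21.3 CPM in WT CD44- NK1.1- cells but 21.5 CPM in Ezh2-KO against 23.4 CPM in WT CD44+ NK1.1+ cells, and was not called over the 3 subsets (0.40 ± 0.13 SE, adjusted p = 0.0921).

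Among the sensors, Ddx58, which encodes RIG-I, was lower, with 149 CPM in Ezh2-KO against 184 CPM in WT CD44- NK1.1- cells, 153 and 144 CPM in Ezh2-KO against 165 and 188 CPM in WT CD44+ NK1.1- cells, and 186 CPM in Ezh2-KO against 234 CPM in WT CD44+ NK1.1+ cells (log2 fold change -0.28 ± 0.06 SE, edgeR adjusted p = 0.0251). The RNA sensor MDA5, encoded by Ifih1, its relative LGP2, encoded by Dhx58, and the nucleic acid sensor Zbp1 were not called. Neither were the transcription factors of the pathway: Stat2 had a log2 fold change of -0.23 ± 0.08 (SE, adjusted p = 0.102), Irf9 one of -0.30 ± 0.11 (adjusted p = 0.128) and Irf7, which amplifies interferon production, one of -0.39 ± 0.17 (adjusted p = 0.207). Irf7 had 87.3 and 91.6 CPM in Ezh2-KO against 158 and 101 CPM in WT CD44+ NK1.1- cells, so most of its difference there came with WT replicate 1. The Mx GTPases and the 8 remaining genes, Rtp4, Xaf1, Ifi35, Ifi44, Trim30a, Lgals3bp, Epsti1 and Sp100, gave 0 calls. Ifi44 had the most negative log2 fold change of the 39 without passing (-1.28 ± 0.48 SE, adjusted p = 0.134), with 1.34 and 0.45 CPM in Ezh2-KO against 4.73 and 1.98 CPM in WT CD44+ NK1.1- cells, so that replicates of both genotypes lay far apart at a low level.

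**Figure D2:**
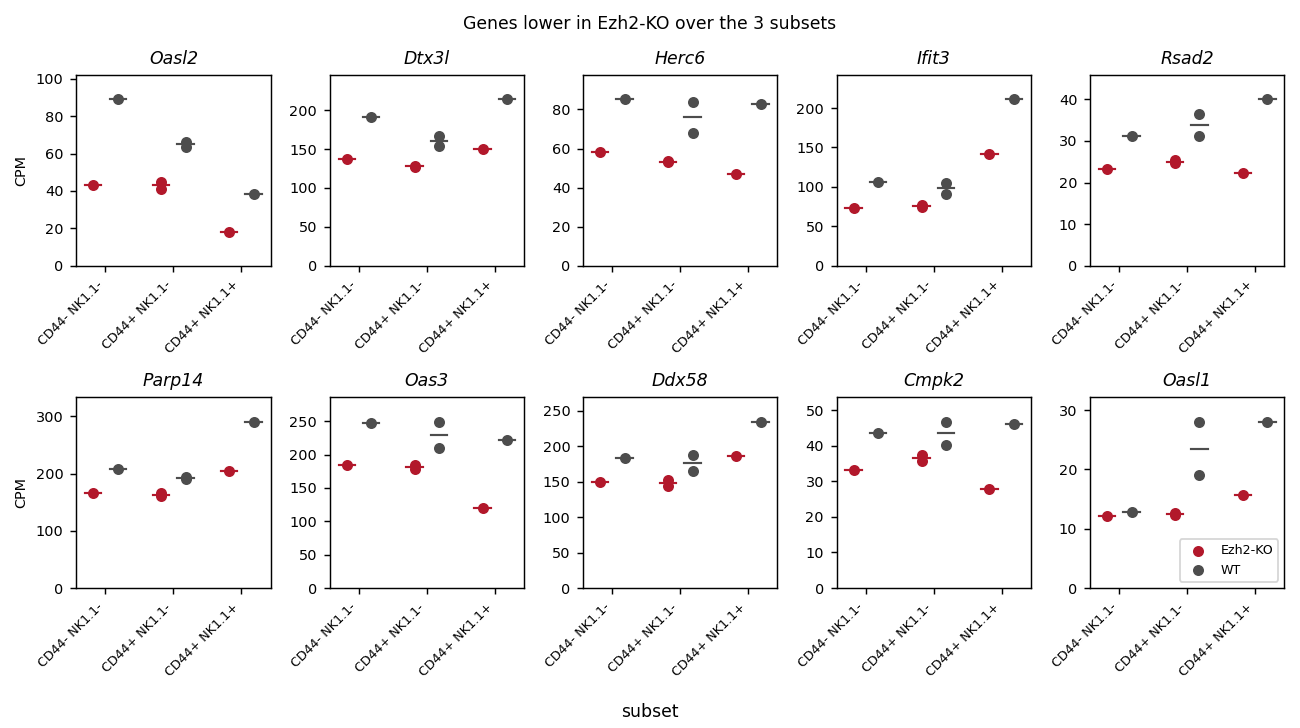
CPM of the 10 genes called lower in Ezh2-KO over the 3 subsets, with the subsets on the horizontal axis, Ezh2-KO points in red left of WT points in grey, and short lines at group means. The genes were selected from these same values. Each Ezh2-KO point lies below the WT points of its subset, and for Oasl1 the gap in CD44- NK1.1- cells is small, at 12.1 CPM in Ezh2-KO against 12.8 CPM in WT.

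Oasl2, Dtx3l, Herc6 and Ifit3 stayed under an adjusted p of 0.05 whichever of the 8 libraries was left out. The count over the 39 genes moved with single libraries, as did the count over all genes. Both rose without WT CD44+ NK1.1- replicate 1 and fell without either Ezh2-KO CD44+ NK1.1- library. The median log2 fold change of the 39 was -0.27 without that WT library, and -0.28 and -0.27 without Ezh2-KO CD44+ NK1.1- replicates 1 and 2. Ddx58 and Cmpk2 each kept their call in 1 of the 8 fits with a library left out, Oasl1 in 3, Oas3 in 4, Parp14 in 5 and Rsad2 in 6. Oasl1 also lost it with library size in place of TMM and as the mean of the 3 genotype effects, Ddx58 with that mean and Cmpk2 with library size.

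**Figure D3:**
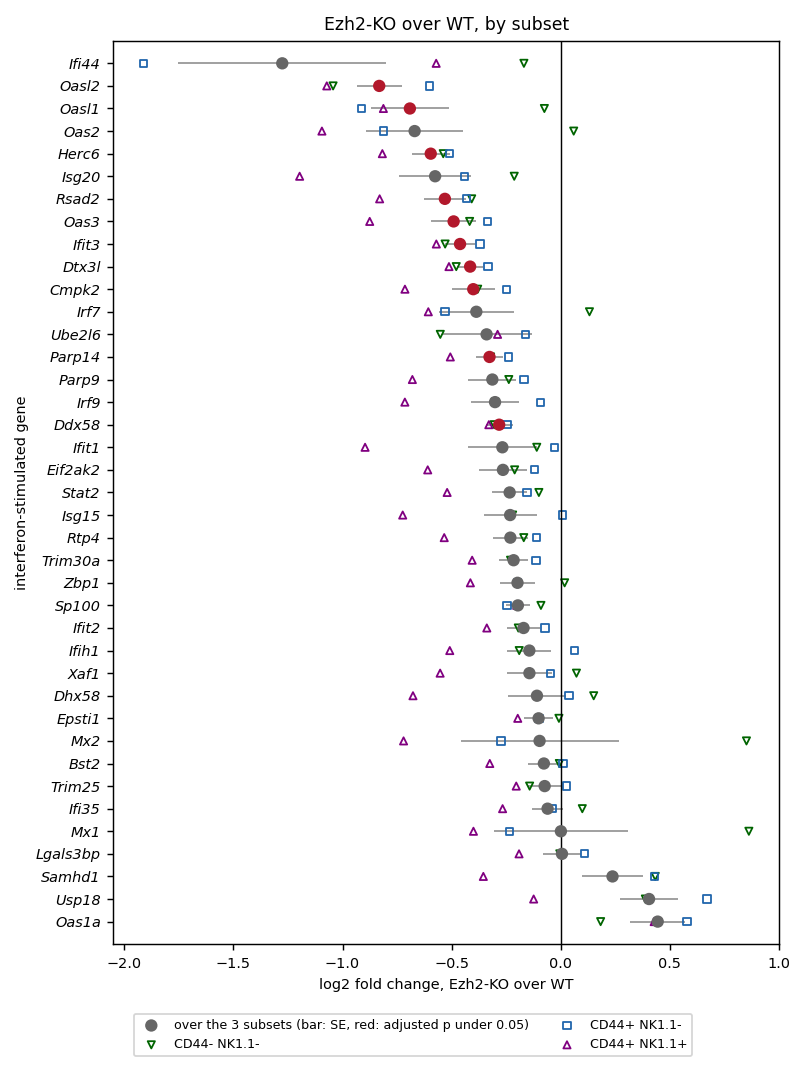
Log2 fold change of Ezh2-KO over WT for each of the 39 genes. Filled circles with SE bars are the effects over the 3 subsets, in red where the adjusted p is under 0.05, and open symbols are the ratios in single subsets. The CD44+ NK1.1+ ratios lie left of 0 for 38 of the 39 genes.

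In CD44+ NK1.1+ cells, with 1 library of each genotype, nearly the whole set had lower values in Ezh2-KO. The Ezh2-KO library lay below the WT library for 38 of the 39 genes, where 51.6% of all genes did, and the median log2 ratio was -0.53, against -0.01 for all genes. Isg20, Oas2 and Oasl2 were more than 2-fold lower, a size that 1.09% of all genes reached in that direction. Isg20 had 37.9 CPM in Ezh2-KO and 87.5 CPM in WT cells (log2 ratio -1.20 with 0.5 CPM added), and Ifit1 had 63.7 CPM in Ezh2-KO and 119 CPM in WT cells. The exception was Oas1a, with 42.2 CPM in Ezh2-KO and 31.2 CPM in WT cells. A contrast of the 2 lone libraries in the model of 6 groups, which assumes that they vary like the replicated pairs and was added after the data were seen, called 1 of the 39 genes, where 0.95% of all genes were called. That gene was Oasl2 (log2 fold change -1.09 ± 0.15 SE, edgeR adjusted p = 0.044). At an unadjusted p under 0.05 there were 23 genes, all lower, where 10.1% of all genes passed in either direction. The count of calls rose without either WT CD44+ NK1.1- library and fell without either Ezh2-KO CD44+ NK1.1- library, among all genes too. The spread in those fits came from the other pair alone. The median log2 fold change of the 39 was -0.54 in each of them.

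Genes that hardly differed in CD44+ NK1.1- cells also had lower values here. Isg15 had 33.4 CPM in Ezh2-KO and 55.5 CPM in WT cells, Bst2 97.2 CPM in Ezh2-KO and 122 CPM in WT cells, and Irf9 82.4 CPM in Ezh2-KO and 135 CPM in WT cells. Other programmes differed between these 2 libraries as well. The NKT1 genes were close to equal, at 7614 CPM in Ezh2-KO and 7314 CPM in WT cells. The 7 NKT2 genes summed to 866 CPM in Ezh2-KO and 558 CPM in WT, the 10 myeloid and conventional dendritic genes to 113 CPM in Ezh2-KO and 168 CPM in WT, the 5 NK genes to 1157 CPM in Ezh2-KO and 1607 CPM in WT, the 12 immediate early genes to 1119 CPM in Ezh2-KO and 740 CPM in WT, and the 4 erythroid genes to 59.5 CPM in Ezh2-KO and 1.21 CPM in WT. Most of the myeloid and conventional dendritic sum in the WT library was Fcer1g. The part of these lists in the lower values was not tested.

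In CD44- NK1.1- cells the shift was smaller. The Ezh2-KO library lay below the WT library for 28 of the 39 genes, where 48.9% of all genes did, with a median log2 ratio of -0.17, against 0.0041 for all genes. Oasl2 was the only gene more than 2-fold lower, a size that 0.776% of all genes reached. Mx1 had 7.19 CPM in Ezh2-KO and 3.73 CPM in WT cells and Mx2 5.27 CPM in Ezh2-KO and 2.70 CPM in WT cells, the largest ratios in the other direction. These 2 genes also differed more than 2-fold between the WT CD44+ NK1.1- replicates. The contrast of the 2 lone libraries of this subset called 0 of the 39 genes by edgeR and 1 by DESeq2, where edgeR called 0.239% of all genes, and 8 genes had an unadjusted p under 0.05, where 9.04% of all genes did. Without either WT CD44+ NK1.1- library more genes were called, among all genes too, and the median log2 fold change of the 39 was -0.17.

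Whether the genotype effect differed between subsets was tested directly. Between CD44+ NK1.1+ and CD44+ NK1.1- cells, edgeR called 0 of the 39 genes and 0% of all genes, and the DESeq2 Wald test called 0 of the 39. At an unadjusted p under 0.05, 12 of the 39 differed, all with a lower Ezh2-KO effect in CD44+ NK1.1+ cells, where all genes gave 3.76% in either direction and 2.04% lower. The median difference was -0.34, against 0.0048 for all genes. Isg15 had the smallest p, with a difference of -0.74 ± 0.18 (SE, edgeR adjusted p = 0.834). Without WT CD44+ NK1.1- replicate 1 or 2 the median difference was -0.39 and -0.32. More genes were called in those fits, among all genes too, with the spread then taken from the Ezh2-KO pair alone. Between CD44- NK1.1- and CD44+ NK1.1- cells, 0 of the 39 genes were called by either tool, where 0.0217% of all genes were called, and 1 gene, Oasl2, had an unadjusted p under 0.05, where 4.7% of all genes did (difference -0.45 ± 0.18 SE, adjusted p = 0.992). Without WT CD44+ NK1.1- replicate 1 or 2 the median difference there was 0.03 and -0.10, and more genes were called, among all genes too.

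The stages were compared as the mean over both genotypes. From CD44- NK1.1- to CD44+ NK1.1- cells 0 of the 39 genes were called by edgeR or DESeq2, where 2.66% of all genes were, and 4 had an unadjusted p under 0.05, where 15.4% of all genes did. Without WT CD44+ NK1.1- replicate 1 or 2 the median log2 fold change of the 39 was -0.0050 and 0.0132. More genes were called in those fits, among all genes too. CD44+ NK1.1+ cells differed more. Against CD44+ NK1.1- cells, 8 genes were higher and 5 lower, and over all genes tested 32.5% were called, 16.4% higher and 16.1% lower, so that 13 of 39 is a share near the background. The split was opposite in the single genotypes: 3 genes were higher and 6 lower with the Ezh2-KO libraries in the contrast, and 6 were higher and 1 lower with the WT libraries.

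Ifit3 and Ifit1 were among the genes that rose in CD44+ NK1.1+ cells. Ifit3 had 142 CPM in CD44+ NK1.1+ against 77.3 and 74.9 CPM in CD44+ NK1.1- cells of Ezh2-KO mice, and 211 CPM in CD44+ NK1.1+ against 105 and 91.2 CPM in CD44+ NK1.1- cells of WT mice (log2 fold change 1.0 ± 0.09 SE, edgeR adjusted p = 0.00119). Sp100 had 409 CPM in CD44+ NK1.1+ against 245 and 239 CPM in CD44+ NK1.1- cells of Ezh2-KO mice, and 470 CPM in CD44+ NK1.1+ against 280 and 295 CPM in CD44+ NK1.1- cells of WT mice (0.73 ± 0.08 SE, adjusted p = 0.00184). Both genes rose by like amounts in the 2 genotypes. Epsti1 (0.60), Parp14 (0.46), Stat2 (0.40), Ddx58 (0.37) and Dtx3l (0.32) rose as well on the log2 scale. Within the Ezh2-KO libraries Epsti1 was called and the other 4 were not, and Ddx58 and Dtx3l also lost the call within the WT libraries, with library size in place of TMM and in 4 of 8 fits with a library left out. Ifit1 was called (0.48 ± 0.12 SE, adjusted p = 0.0248) with unequal values in the genotypes, at 63.7 CPM in CD44+ NK1.1+ against 61.3 and 62.2 CPM in CD44+ NK1.1- cells of Ezh2-KO mice and 119 CPM in CD44+ NK1.1+ against 55.2 and 70.7 CPM in CD44+ NK1.1- cells of WT mice.

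Of the oligoadenylate synthetases, Oasl2 and Oas2 fell over the same step. Oasl2 had 17.9 CPM in CD44+ NK1.1+ against 44.8 and 40.9 CPM in CD44+ NK1.1- cells of Ezh2-KO mice, and 38.3 CPM in CD44+ NK1.1+ against 63.7 and 66.3 CPM in CD44+ NK1.1- cells of WT mice (log2 fold change -1.01 ± 0.10 SE, edgeR adjusted p = 0.0014). Oas2 fell by 1.05 ± 0.22 (adjusted p = 0.0163), Samhd1 by 0.54 ± 0.10 (adjusted p = 0.0115) and Dhx58 by 0.48 ± 0.09 (adjusted p = 0.0105). Samhd1 had a log2 change of -0.93 in Ezh2-KO and -0.15 in WT, and Dhx58 of -0.83 in Ezh2-KO and -0.12 in WT, so both were uneven between the genotypes. Within WT libraries alone the calls of Oas2, Samhd1 and Dhx58 were lost (adjusted p = 0.124, 0.543 and 0.565). Isg15 was called lower (-0.32 ± 0.09 SE, adjusted p = 0.0379) as the mean of unequal values, at 33.4 CPM in CD44+ NK1.1+ against 54.0 and 53.9 CPM in CD44+ NK1.1- cells of Ezh2-KO mice and 55.5 CPM in CD44+ NK1.1+ against 51.5 and 55.9 CPM in CD44+ NK1.1- cells of WT mice. With library size in place of TMM, the median of all genes moved to -0.13 and the split became 5 higher and 9 lower. Over all genes, 4827 were called with library size. The median of the 39 was 0.07 and 0.01 without WT CD44+ NK1.1- replicate 1 or 2, and 0.05 and 0.03 without Ezh2-KO CD44+ NK1.1- replicate 1 or 2. It was 0.19 without the Ezh2-KO and -0.17 without the WT CD44+ NK1.1+ library. The count of calls rose without a WT CD44+ NK1.1- library and fell without any of the others named, among all genes too.

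The sign of the last step differed between the genotypes for 16 genes. CD44+ NK1.1+ cells were higher than CD44+ NK1.1- cells for 16 of the 39 genes in Ezh2-KO and for 30 in WT, and 15 genes were lower in Ezh2-KO and higher in WT. The same counts were not made over all genes, so they have no background share. Each genotype had 1 CD44+ NK1.1+ library, and some signs rest on values near 0, such as -0.0152 on the log2 scale for Ifi35 in Ezh2-KO. The test of this difference is the one between genotype effects given above, which called 0 genes. Against CD44- NK1.1- cells, CD44+ NK1.1+ cells again had 8 genes higher and 5 lower, where 32.2% of all genes were called. These 5 were Oasl2, Samhd1, Oas2, Dhx58 and Oas3, and the 8 were Sp100, Ifit3, Epsti1, Parp14, Isg20, Ifit1, Stat2 and Oasl1. Within WT libraries alone the calls of Samhd1, Oas2, Dhx58, Oas3 and Parp14 were lost. Within Ezh2-KO libraries alone those of Oas3, Parp14, Isg20, Ifit1, Stat2 and Oasl1 were lost. With 1 library left out, the log2 fold change ran from -0.85 to -0.0019 for Dhx58 and from -0.62 to -0.15 for Oas3. With library size in place of TMM the split was 4 higher and 9 lower, with the median of all genes at -0.16. That setting called 4979 of all genes. Against CD44- NK1.1- cells the median of the 39 was 0.07 without any 1 of the CD44+ NK1.1- libraries and 0.28 without either Ezh2-KO library of the contrast. It was -0.15 without the WT CD44+ NK1.1+ library and -0.16 without the WT CD44- NK1.1- library. The count of calls rose without a WT CD44+ NK1.1- library and fell in the other fits, among all genes too. Ifit3, Sp100 and Oasl2 kept their calls in both comparisons whichever library was left out. Of the other called genes, only Epsti1 did so against CD44- NK1.1- cells, and none did against CD44+ NK1.1- cells.

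**Figure D4:**
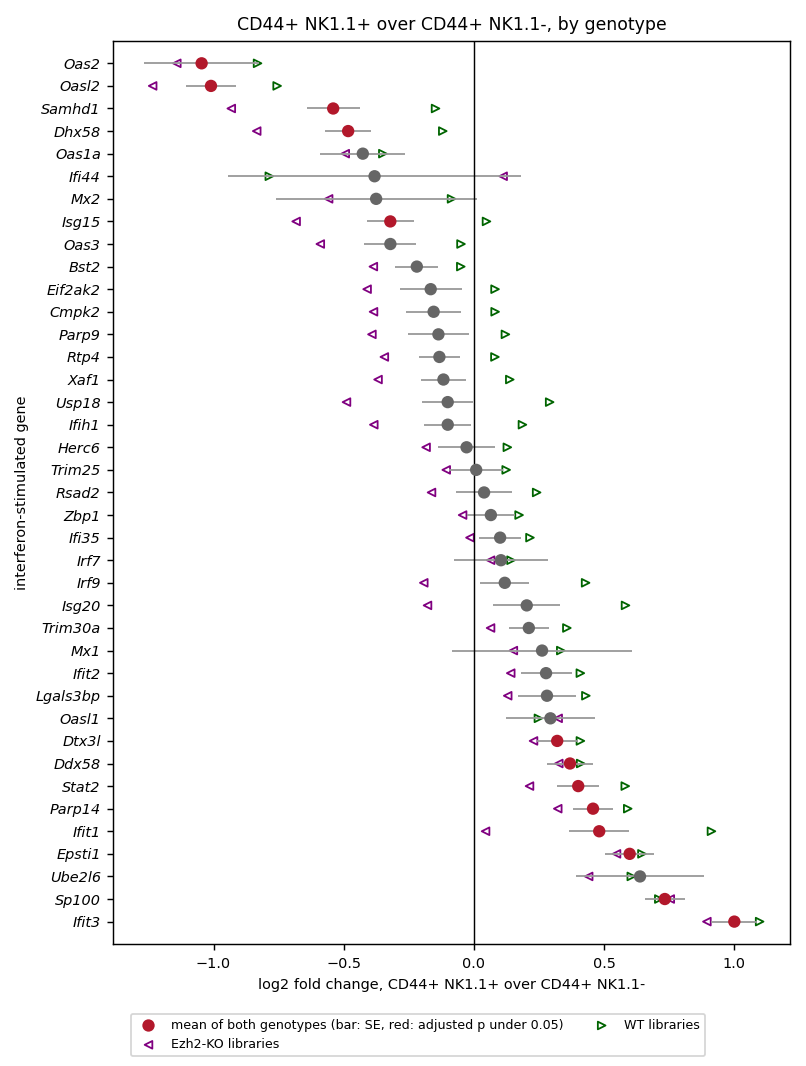
Log2 fold change of CD44+ NK1.1+ over CD44+ NK1.1- cells for each of the 39 genes. Filled circles with SE bars are means over both genotypes, in red where the adjusted p is under 0.05, and open triangles are the changes within Ezh2-KO and within WT. Ifit3 and Sp100 have like values in both genotypes, while Isg15, Usp18 and Ifit1 lie far apart.

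The rest of the pathway was followed through lists of its other genes. Their calls were not repeated with a library left out, so how far they rest on single libraries was not tested. Interferon genes were almost silent: of 21 ligand genes, including interferon beta and the interferon alpha family, only Ifng passed the filter, and Ifnb1 had 0 counts in every library, which allows at most 0.129 to 0.151 CPM. Ifng, the type II interferon, had 38.4 CPM in Ezh2-KO against 34.8 CPM in WT CD44+ NK1.1+ cells, 1.05 and 0.945 CPM in Ezh2-KO against 36.8 and 3.27 CPM in WT CD44+ NK1.1- cells, and 0.321 CPM in Ezh2-KO against 0.225 CPM in WT CD44- NK1.1- cells. Its difference between genotypes was not called (edgeR adjusted p = 0.404 over the 3 subsets).

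Of the 14 receptor and signalling genes, 3 were lower in Ezh2-KO over the 3 subsets and 0 higher, where 4.89% of all genes were lower and 6.43% higher, with a median log2 fold change of -0.17. Ifnar2 had 60.8 CPM in Ezh2-KO against 78.8 CPM in WT CD44- NK1.1- cells, 69.4 and 66.8 CPM in Ezh2-KO against 88.9 and 86.9 CPM in WT CD44+ NK1.1- cells, and 94.8 CPM in Ezh2-KO against 114 CPM in WT CD44+ NK1.1+ cells (-0.34 ± 0.05 SE, edgeR adjusted p = 0.00745). Its Ezh2-KO values lay below the WT values in each subset. Ifnar1, the other receptor chain (log2 fold change -0.23 ± 0.06 SE, adjusted p = 0.0357), and Socs1, which inhibits the JAK kinases (-0.62 ± 0.10 SE, adjusted p = 0.00794), were lower too. Tyk2 (-0.16 ± 0.06 SE, adjusted p = 0.11) and Jak1 (-0.04 ± 0.07 SE, adjusted p = 0.782) were not called. In CD44+ NK1.1+ against CD44+ NK1.1- cells, 9 of the 14 were higher and 1 lower, where 16.4% of all genes were higher and 16.1% lower, with Ifnar1 at 0.57 ± 0.08, Ifnar2 at 0.42 ± 0.08, Tyk2 at 0.67 ± 0.08 and Jak1 at 0.71 ± 0.08 on the log2 scale (SE, adjusted p = 0.00474, 0.0104, 0.00226 and 0.00254).

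Of 9 other interferon regulatory factors and their partners, 1 was lower in Ezh2-KO over the 3 subsets, beside the same 4.89% of all genes. This was Irf1, which interferon gamma also induces, with 168 CPM in Ezh2-KO against 211 CPM in WT CD44- NK1.1- cells, 139 and 139 CPM in Ezh2-KO against 269 and 182 CPM in WT CD44+ NK1.1- cells, and 198 CPM in Ezh2-KO against 257 CPM in WT CD44+ NK1.1+ cells (log2 fold change -0.53 ± 0.13 SE, edgeR adjusted p = 0.0401). Irf3, which switches on interferon genes downstream of the sensors, was not called (-0.02 ± 0.07 SE, adjusted p = 0.905). Of 13 upstream adaptors and sensors that were tested, Ikbke was higher (0.34 ± 0.06 SE, adjusted p = 0.0125), and Myd88 (-0.27 ± 0.05 SE, adjusted p = 0.0141) and Tlr7 (-0.83 ± 0.20 SE, adjusted p = 0.0367) were lower, beside 6.43% higher and 4.89% lower among all genes.

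Among 57 other genes that interferons induce, many of them also by interferon gamma, 13 were lower and 1 higher in Ezh2-KO over the 3 subsets, where 4.89% of all genes were lower and 6.43% higher, with a median log2 fold change of -0.21. Those lower included the guanylate-binding proteins Gbp4, Gbp6, Gbp7 and Gbp9, the DNA sensors Ifi204 and Aim2, and the restriction factors Ifitm2 and Ifitm3, which block virus entry. Ifitm3 had 0.412 CPM in Ezh2-KO against 0.854 CPM in WT CD44- NK1.1- cells, 0.668 and 0.585 CPM in Ezh2-KO against 5.90 and 3.05 CPM in WT CD44+ NK1.1- cells, and 3.97 CPM in Ezh2-KO against 22.4 CPM in WT CD44+ NK1.1+ cells (-2.45 ± 0.32 SE, edgeR adjusted p = 0.00434). These are low levels, and the gap was narrow in CD44- NK1.1- cells. The gene that rose was Ifi27 (0.32 ± 0.05 SE, adjusted p = 0.00902).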

How the data were processed

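RNA from 8 sorted libraries of thymic NKT cells was sequenced, each over several lanes, after extraction with the RNeasy Plus Mini kit and TruSeq library preparation, per the labels' protocols. The deposited values are raw counts of reads per gene, which the authors made with Subread 1.4.3-p1 and featureCounts on mm10, with base calling by CASAVA, per the submitters' processing notes. Samples were grouped by labelled genotype and subset. The series' design text calls the pairs of CD44+ NK1.1- libraries biological replicates, and the labels give them no numbers.

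Counts were filtered with filterByExpr on the 6 groups and scaled by TMM, and edgeR 4.0.16 (R 4.3.3, limma 3.58.1) fitted the quasi-likelihood model with robust dispersion. A model with a mean for each of the 6 groups gave the CD44+ NK1.1- comparison, the stage comparisons and the tests of the difference between genotype effects, with 2 residual degrees of freedom. The same model, used after the data were seen, compared the lone libraries of the other subsets. An additive model of subset and genotype gave the effect over the 3 subsets, with 4. P-values were adjusted by Benjamini-Hochberg over 13794 genes, and an adjusted p under 0.05 was called. The comparisons share libraries. Alternatives were other scalings, no filter, DESeq2 1.42.0, contrasts within 1 genotype, the 4 CD44+ NK1.1- libraries alone and each library left out. Depth ranged from 20308745 to 22995090 counts, and intervals from replicates cover only these samples. The procedure was tested on simulated data.

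Symbols matched the gene identifiers of the deposited table. RPKM used the gene lengths deposited with the counts. Promoter windows came from RefSeq on GRCm38.p6. The 39 genes and the other lists were chosen with earlier results of these data known. The genes described in full are those called in a genotype comparison, those called in a stage comparison with the same sign in both genotypes, and 12 named members of the response, with the remaining genes given by counts.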

Additional observations from a re-analysis of the deposited data

How the results depend on the processing

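The counts of called genes among the 39 kept within 1.5 times under DESeq2 size factors, library size and no filter in every comparison but those between lone libraries. The DESeq2 Wald test called 4 genes in CD44+ NK1.1- cells, where edgeR called 2, and stayed within 1.5 times of edgeR elsewhere, again apart from the lone libraries. Over the 3 subsets the counts outside the fits with a library left out ran between 9 and 15. Within WT libraries alone, 7 genes were called in CD44+ NK1.1+ against CD44+ NK1.1- cells and 8 against CD44- NK1.1- cells, and within Ezh2-KO libraries alone 7 were called in the comparison with CD44- NK1.1- cells. Over all genes, the same contrasts called 1416, 2052 and 2118 genes, in that order. Leaving out 1 library at a time gave 0 to 21 genes for the genotype comparison in CD44+ NK1.1- cells, 4 to 18 over the 3 subsets, 3 to 28 for CD44+ NK1.1+ against CD44+ NK1.1- cells, 0 to 15 for CD44+ NK1.1- against CD44- NK1.1- cells and 5 to 30 for CD44+ NK1.1+ against CD44- NK1.1- cells. For the difference of the genotype effect it gave 0 to 21 in CD44+ NK1.1+ cells and 0 to 11 in CD44- NK1.1- cells, each set against CD44+ NK1.1- cells. A fit without 1 of the lone libraries of such a contrast has no value. In the model of 6 groups, leaving out a WT CD44+ NK1.1- library raised these counts and leaving out an Ezh2-KO one lowered them or left them at 0, and in those fits the spread comes from the other pair alone. The counts over all genes tested moved in the same way, so these ranges are not particular to the 39 genes. The contrasts between lone libraries, chosen after seeing the data, gave 3 calls without the filter and 4 by DESeq2 in CD44+ NK1.1+ cells, where edgeR gave 1, and 1 call under each of these settings in CD44- NK1.1- cells, where edgeR gave 0. With 1 other library left out they ran from 0 to 31 and from 0 to 15. Mx1 in CD44+ NK1.1- cells had a log2 fold change from -0.72 without WT replicate 2 to 0.51 without WT replicate 1, where it was called. Isg15 in CD44+ NK1.1+ against CD44+ NK1.1- cells ran from -0.69 to 0.0497 with 1 library left out and was 0.0487 within WT libraries alone. Of the values of single genes, 1036 of those with a library left out kept both direction and side of the threshold, 111 passed it only there, 99 lost it and 2 were reversed, and under the other settings 814 kept both, 14 passed, 35 lost the call and 1 was reversed. No paired analysis was possible because the labels give the replicates no shared numbers and each genotype has 1 library in 2 of the 3 subsets.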
